A study of Mus musculus with 10 samples.

Results

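Insulin, FOXO1 and the enzymes of glucose output were followed here through Bap1 loss and acute liver injury, in 9 genes. They are Insr, Irs1, Irs2, Foxo1, Cebpb, Ppargc1a, Pck1, G6pc and Tat. They were taken by symbol from the 55291 genes of the deposited count table, and all 9 were among the 17015 genes with enough reads to test. The whole liver was sequenced as bulk polyA RNA from 10 mice.

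All mice were females aged 16 to 20 weeks that carry a Cas9 gene silenced by a stop cassette between lox sites. Each received an AAV8 virus that brings a guide RNA and a Cre recombinase under the TBG promoter, which is active in hepatocytes, and Bap1 was not measured by cell type. The guide was either a non-targeting control (NTC) or one against Bap1 (sgBap1), the gene of a nuclear deubiquitinase. On day 10 the mice were injected with olive oil as vehicle (Veh) or with carbon tetrachloride (CCl4) in olive oil, a toxin that kills hepatocytes around the central veins, and the livers were taken 48 hours later. Vehicle was given to 2 NTC and 2 sgBap1 mice (NTC-Veh and sgBap1-Veh), and CCl4 to 3 of each guide (NTC-CCl4 and sgBap1-CCl4). Neither the labels nor the methods state whether the mice had been fasted or at what time of day they were killed.

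After a meal, insulin binds its receptor INSR, which phosphorylates the adaptor proteins IRS1 and IRS2 and so activates the kinase AKT. AKT phosphorylates the transcription factor FOXO1 and drives it out of the nucleus. In fasting FOXO1 stays in the nucleus and, with the coactivator PGC-1alpha (Ppargc1a), the factor C/EBPbeta (Cebpb) and signals from glucagon and glucocorticoids, raises the transcription of gluconeogenic genes such as Pck1 and G6pc. The measurements below are of mRNA, so neither the phosphorylation nor the location of FOXO1 was measured.

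In NTC livers, all 9 genes fell after CCl4, beside 53.9% of all genes tested called and 26.6% called lower. In sgBap1 livers 5 fell (Insr, Irs1, Pck1, G6pc and Tat), beside 57% called and 28% called lower. There the log2 changes of Foxo1, Cebpb, Irs2 and Ppargc1a, 0.22, 0.26, -0.41 and -0.49, did not pass the test. By edgeR, the difference between the CCl4 changes of the genotypes was called for 0 of the 9. Foxo1 was the one gene of the 9 that differed between genotypes, 1.82-fold higher in sgBap1-CCl4 than in NTC-CCl4 livers. That call was lost without some single CCl4 mice. With vehicle none of the 9 passed the test between genotypes.

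The sequences next to the start sites are given for the pair of enzymes that make and release new glucose and for Foxo1, the gene that differed between genotypes. They are the 250 bases before the RefSeq start on GRCm38.p6, at chr2:173152823-173153072 on the + strand for Pck1, at chr11:101367466-101367715 on the + strand for G6pc and at chr3:52268087-52268336 on the + strand for Foxo1. Capitals mark matches, on either strand, to 1 of 6 motifs: the FOXO site TGTTTAC, the core of the insulin response element TGTTTTG, the cyclic AMP response element (CRE) TGACGTCA and its shorter form TGACG, a loose C/EBP site TTNNGNAA and the glucocorticoid receptor motif TGTTCT.
Pck1: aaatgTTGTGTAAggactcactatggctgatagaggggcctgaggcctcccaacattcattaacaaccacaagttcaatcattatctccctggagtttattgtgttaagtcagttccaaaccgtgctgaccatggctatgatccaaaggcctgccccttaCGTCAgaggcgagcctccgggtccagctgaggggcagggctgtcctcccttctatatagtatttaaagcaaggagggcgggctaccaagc
G6pc: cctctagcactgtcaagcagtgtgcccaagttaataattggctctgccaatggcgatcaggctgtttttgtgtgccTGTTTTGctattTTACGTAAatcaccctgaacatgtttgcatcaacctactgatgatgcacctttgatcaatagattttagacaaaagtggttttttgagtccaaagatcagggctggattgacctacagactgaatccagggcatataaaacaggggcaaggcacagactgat
Foxo1: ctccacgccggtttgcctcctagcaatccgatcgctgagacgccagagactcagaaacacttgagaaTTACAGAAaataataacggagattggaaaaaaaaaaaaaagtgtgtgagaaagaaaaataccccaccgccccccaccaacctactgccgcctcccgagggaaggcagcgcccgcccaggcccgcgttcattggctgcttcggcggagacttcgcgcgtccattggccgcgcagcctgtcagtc
The Pck1 window held 1 match to TGACG, starting 90 bases before the start on the - strand, and 1 loose C/EBP match. The G6pc window held 1 core of the insulin response element, 174 bases before the start, and a C/EBP match that reads the same on both strands. The Foxo1 window held 1 loose C/EBP match and none of the other motifs. Of all 32851 promoters in the RefSeq table, 5.56% held TGTTTTG, 17.8% held TGACG and 36.8% held TTNNGNAA in this window, while 3.17% held TGTTTAC, 1.55% held TGACGTCA and 16.1% held TGTTCT. Of the 9 genes, 8 had a promoter in the table and Insr did not. Among the others, the core TGTTTTG was also found at Irs1 with 2 matches and at Irs2 with 1. Any match is a run of letters and not a measured binding site.

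Depth and the sample labels were checked first. Total estimated counts were 33047900 to 52199900 per liver, and levels are given as CPM, counts scaled to a common library total by TMM, a normalization that assumes most genes do not change. With vehicle, Bap1 stood at 34.8 CPM in both NTC livers and at 17.5 and 19.5 CPM in those with sgBap1 (log2 fold change -0.91, adjusted p = 0.0208). With CCl4 it ranged over 29.5 to 31.5 CPM for the control guide and 17.0 to 21.8 CPM for sgBap1 (-0.65, adjusted p = 0.0295). Summed hepatocyte markers were at 130363 to 177977 CPM in vehicle livers and 72827 to 92721 in CCl4 livers. Of the 14 hepatocyte markers 12 fell in NTC and 10 in sgBap1 livers after CCl4, beside 26.6% and 28% of all genes called lower. Their median log2 fold changes were -1.57 and -1.31. Macrophage, lymphocyte, neutrophil, stellate and bile duct markers had higher sums in CCl4 livers, and with vehicle the macrophage sum was also higher for sgBap1 (292 to 434 CPM) than for NTC (154 to 226 CPM), as was the lymphocyte sum (39.4 to 41.7 against 14.9 to 25.0 CPM). Of the 12 macrophage markers, 8 rose and 0 fell in NTC livers after CCl4, beside 27.4% and 26.6% of all genes. In sgBap1 livers 7 rose and 3 fell (Clec4f, Timd4 and Cd163), beside 29% and 28% of all genes. Without sgBap1-CCl4 replicate 2, 6 rose and 1 fell, beside 8855 of 16825 genes called. With CCl4 the lymphocyte sum was mostly Ptprc (mean 51.0 CPM in NTC and 47.0 CPM in sgBap1 livers). After CCl4 all 10 lymphocyte markers had a positive change in NTC livers, and 5 were called higher, beside 27.4% of all genes. In sgBap1 livers 3 of the 10 had a positive change and 1 was called higher, beside 29% of all genes, with a median of -0.24. The bile duct sum was mostly Spp1 (mean 199 and 316 CPM with CCl4). In each genotype 2 of its 5 markers were called higher, beside 27.4% of all genes in NTC and 29% in sgBap1 livers. In a bulk sample, fewer cells of a type and less RNA per cell cannot be told apart. One liver, sgBap1-CCl4 replicate 2, held RNA of fat cells, with 36.4 CPM of Adipoq and 144 CPM of Cfd, when Adipoq did not exceed 0.0425 CPM and Cfd was at 0 in the remaining 9. Calls that were lost, and pathway list counts that moved by over 1 gene, are given with and without it.

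**Figure D1:**
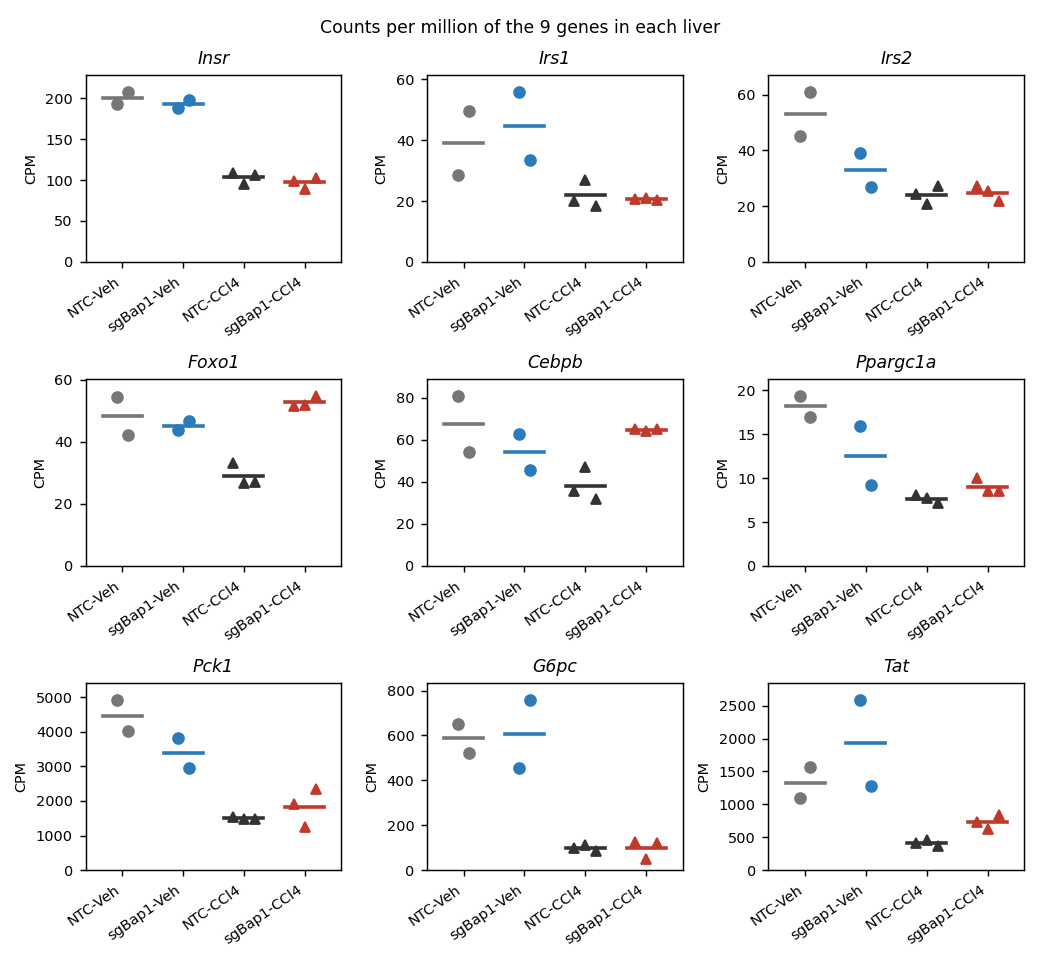
Level of each of the 9 genes (CPM, vertical axis from 0) in every liver of the 4 groups (horizontal axis). Each point is 1 mouse and each line the group mean. Foxo1 is lowest in NTC-CCl4 livers, at 26.8 to 33.0 CPM. Cebpb has its lowest mean there, though NTC-CCl4 replicate 2 (47.0 CPM) lies above sgBap1-Veh replicate 2 (45.5 CPM). G6pc is at most 127 CPM in all 6 CCl4 livers.

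Insr, at chr8:3122061-3279617 on the - strand (GRCm38, as for the genes below), encodes the insulin receptor and fell in both genotypes. It stood at 193 and 208 CPM in NTC-Veh livers and at 188 and 198 CPM in sgBap1-Veh livers. After CCl4 it was 109, 94.8 and 106 CPM in NTC and 99.1, 89.5 and 103 CPM in sgBap1 livers. All 6 CCl4 livers lay below all 4 vehicle livers, and the genotypes overlapped under both treatments. Insr fell by 0.96 in NTC and by 0.99 in sgBap1 livers on the log2 scale (SE 0.10 each, adjusted p = 2.33e-05 and 1.75e-05). The difference between these falls was -0.03, with a 95% interval from -0.34 to 0.28.

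Irs1 (chr1:82233101-82291416, - strand) encodes an adaptor that links the receptor to PI3 kinase. Its levels were 28.5 and 49.7 CPM in NTC-Veh livers and 56.0 and 33.6 CPM in sgBap1-Veh livers. With CCl4 they were 20.1, 27.1 and 18.5 CPM in NTC and 20.8, 20.8 and 20.3 CPM in sgBap1 livers. The vehicle livers of each genotype differed widely, yet no CCl4 liver reached a vehicle liver. Irs1 fell by 0.84 in NTC (SE 0.27, adjusted p = 0.0281) and by 1.12 in sgBap1 livers (SE 0.27, adjusted p = 0.00697), the latter call being lost without sgBap1-Veh replicate 1 (adjusted p = 0.0838). The fall in NTC livers was also not called when scaled by library size or with no filter on low counts, nor without NTC-Veh replicate 2 or NTC-CCl4 replicate 1 or 3 (adjusted p = 0.0765 to 0.313). Of the 50-base stretches of Irs1, 30.5% also occur in Gm9747 on the other strand, which was at most 0.215 CPM.

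Irs2 (chr8:10984681-11008458, - strand) encodes the adaptor whose transcription FOXO1 itself raises in fasting. It was 45.1 and 61.1 CPM in NTC-Veh livers and 38.9 and 26.8 CPM in sgBap1-Veh livers. It was 24.4, 20.7 and 27.1 CPM in NTC-CCl4 and 27.1, 25.4 and 21.6 CPM in sgBap1-CCl4 livers. Both sgBap1-Veh livers lay below both NTC-Veh livers, and 1 of them lay within the range of the CCl4 livers. In NTC livers Irs2 fell by 1.14 (SE 0.19, adjusted p = 0.000569). In sgBap1 livers the change with CCl4 was -0.41 (SE 0.19, adjusted p = 0.0856), and it passed the test without sgBap1-Veh replicate 2 (adjusted p = 0.0252). With vehicle, the log2 difference between genotypes was -0.69 (SE 0.21), which did not pass the test (adjusted p = 0.196).

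Foxo1 (chr3:52268336-52353221, + strand), the factor that insulin excludes from the nucleus, was 54.3 and 42.1 CPM in NTC-Veh livers and 43.7 and 46.7 CPM in sgBap1-Veh livers. It was 33.0, 26.8 and 27.1 CPM in NTC-CCl4 livers. In sgBap1-CCl4 livers it was 51.4, 51.8 and 54.8 CPM. Each sgBap1-CCl4 liver lay above both sgBap1-Veh livers and each NTC-CCl4 liver lay below both NTC-Veh livers. Foxo1 fell by 0.73 in NTC livers (SE 0.12, adjusted p = 0.000601), whereas its change in sgBap1 livers was 0.22 (SE 0.13, adjusted p = 0.156). Between the genotypes with CCl4 the log2 difference was 0.86 (SE 0.11, 95% interval 0.61 to 1.11, adjusted p = 0.0189). That call was kept in 9 of 9 other settings, and without the liver with fat cell RNA (0.88, adjusted p = 0.0344). It was lost without NTC-CCl4 replicate 1, 2 or 3 or without sgBap1-CCl4 replicate 1, with adjusted p of 0.0630 to 0.0920 and differences of 0.81 to 0.97. The interaction, the difference between the CCl4 changes of the genotypes, was 0.96 (SE 0.18) with an adjusted p of 0.0800 by edgeR, and it passed the test by DESeq2's Wald test (adjusted p = 0.000679). Foxo1 and Cebpb were named by the study for an interaction in these same livers, so their values here are no independent evidence of it.

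Cebpb (chr2:167688915-167690418, + strand) encodes C/EBPbeta, a bZIP factor of the acute phase and of gluconeogenesis. It was 80.9 and 54.2 CPM in NTC-Veh livers and 62.5 and 45.5 CPM in sgBap1-Veh livers. After CCl4 it was 35.5, 47.0 and 31.8 CPM in NTC livers but 65.1, 63.9 and 65.0 CPM in sgBap1 livers. The 3 sgBap1-CCl4 livers were nearly equal and lay above every NTC-CCl4 liver and both sgBap1-Veh livers. Cebpb fell by 0.83 in NTC livers (SE 0.20, adjusted p = 0.00679), a call lost without NTC-Veh replicate 1 (-0.51, adjusted p = 0.0925). In sgBap1 livers its change was 0.26 (SE 0.21, adjusted p = 0.311). The difference between genotypes with CCl4 was 0.76 (SE 0.19, 95% interval 0.35 to 1.18), which did not pass the test (adjusted p = 0.120) and did so only with DESeq2's Wald test among the alternatives (adjusted p = 0.00563). The interaction was 1.09 (SE 0.29, adjusted p = 0.202, and 0.0206 by DESeq2). Of the 50-base stretches of Cebpb, 18.1% also occur in Tmem189 on the other strand, whose mean was 14.3, 17.8, 20.4 and 23.4 CPM in NTC-Veh, sgBap1-Veh, NTC-CCl4 and then sgBap1-CCl4 livers. The part of Tmem189 in the reads counted for Cebpb was not tested.

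Ppargc1a (chr5:51454250-51567726, - strand), the coactivator PGC-1alpha, had the lowest level per length of the 9. It was 19.4 and 17.0 CPM in NTC-Veh livers and 15.9 and 9.17 CPM in sgBap1-Veh livers. In the injured livers it was 8.08, 7.74 and 7.16 CPM for NTC and 10.0, 8.47 and 8.48 CPM for sgBap1. The sgBap1-Veh livers lay below the NTC-Veh livers, and the lower of them overlapped the sgBap1-CCl4 livers. Ppargc1a fell by 1.24 in NTC livers (SE 0.19, adjusted p = 0.000356). In sgBap1 livers its change of -0.49 (SE 0.19) just missed the threshold (adjusted p = 0.0541), and it passed without sgBap1-Veh replicate 2 (adjusted p = 0.00192), with DESeq2's size factors (0.0456) and by DESeq2's Wald test (0.0499). The vehicle difference between genotypes was -0.53 (SE 0.21, adjusted p = 0.345).

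Pck1 (chr2:173153048-173159273, + strand) encodes the cytosolic enzyme that makes phosphoenolpyruvate from oxaloacetate, the committed step of gluconeogenesis. It was 4919 and 4018 CPM in NTC-Veh livers and 3820 and 2946 CPM in sgBap1-Veh livers. After CCl4 it was 1544, 1477 and 1467 CPM in NTC and 1917, 1255 and 2336 CPM in sgBap1 livers. The NTC-CCl4 livers were nearly equal, and the sgBap1-CCl4 livers spread to both sides of them, the lowest being the one with fat cell RNA. Pck1 fell by 1.58 in NTC livers (SE 0.23, adjusted p = 0.000276) and by 0.88 in sgBap1 livers (SE 0.23, adjusted p = 0.00872), the latter call being lost without sgBap1-Veh replicate 1 (adjusted p = 0.0894) and when scaled by library size alone (-0.42, adjusted p = 0.0737). The interaction of 0.70 (SE 0.34) did not pass the test (adjusted p = 0.527).

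G6pc (chr11:101367561-101377903, + strand), the phosphatase that frees glucose for release, fell the most of the 9 in either genotype. It was 653 and 523 CPM in NTC-Veh livers and 457 and 758 CPM in sgBap1-Veh livers. After CCl4 it was 97.8, 113 and 84.2 CPM in NTC livers. It was 127, 49.3 and 121 CPM in sgBap1-CCl4 livers. All 6 CCl4 livers lay far below the 4 vehicle livers, and the liver with fat cell RNA was again the lowest of its group. The fold was 5.97 lower in NTC (log2 -2.58, SE 0.38, adjusted p = 0.000551) and 6.13 lower in sgBap1 livers (log2 -2.62, SE 0.38, adjusted p = 0.000479). The genotypes differed by 0.01 with CCl4, with a 95% interval from -0.77 to 0.79.

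Tat (chr8:109990437-109999803, + strand) encodes tyrosine aminotransferase, an enzyme of tyrosine breakdown whose gene glucocorticoids induce. It was 1089 and 1568 CPM in NTC-Veh livers and 2586 and 1272 CPM in sgBap1-Veh livers. It was 407, 457 and 372 CPM in NTC-CCl4 and 726, 630 and 837 CPM in sgBap1-CCl4 livers. Every sgBap1-CCl4 liver lay above every NTC-CCl4 liver, and all 6 lay below the vehicle livers. Tat fell by 1.69 in NTC (SE 0.27, adjusted p = 0.000525) and was 2.64-fold lower in sgBap1 livers (log2 SE 0.27, adjusted p = 0.00156). With CCl4 the genotypes differed by 0.83 (SE 0.25, 95% interval 0.27 to 1.38), short of the threshold (adjusted p = 0.182) but past it by DESeq2's Wald test (adjusted p = 0.0184).

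**Figure D2:**
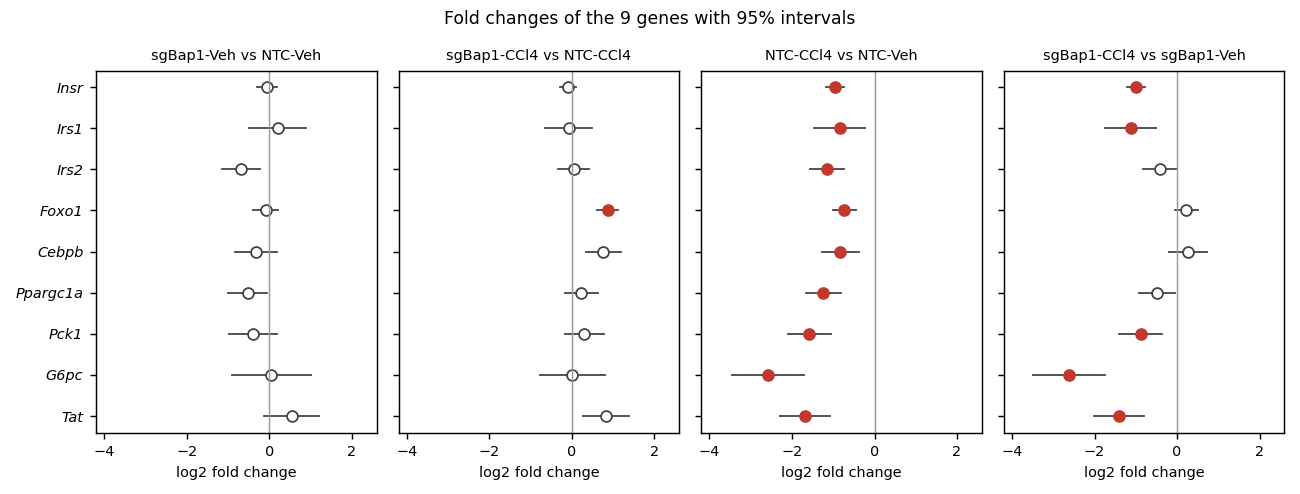
Log2 fold change (horizontal axis) of each gene (vertical axis) in the 4 pairwise comparisons, with 95% intervals as lines. Filled red points passed an adjusted p of 0.05 and open points did not. All 9 are filled in NTC-CCl4 vs NTC-Veh, 5 in sgBap1-CCl4 vs sgBap1-Veh, Foxo1 alone in sgBap1-CCl4 vs NTC-CCl4 and none in sgBap1-Veh vs NTC-Veh.

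Counted together, 9 of 9 genes fell in NTC livers after CCl4, when 53.9% of all genes tested were called, 26.6% lower and 27.4% higher, and 59.1% had an unadjusted p under 0.05. Their median log2 fold change was -1.14, against 0.03 over all genes tested. In sgBap1 livers 5 of the 9 fell and none rose, beside 57% of all genes called, 28% lower and 29% higher, and 61.7% at an unadjusted p under 0.05. The medians were -0.88 and 0.04. With CCl4, 1 of 9 differed between genotypes, beside 0.329% of all genes called and 0.2% called higher, and 3 of 9 against 14% had an unadjusted p under 0.05. With vehicle 0 of 9 differed (2 at an unadjusted p under 0.05, and 0 by DESeq2's Wald test), beside 0.406% of all genes called and 12.3% at that unadjusted p. DESeq2's Wald test called 548 of 27893 genes there. For the interaction edgeR called 0 of 9 and 0% of all genes, while 4 of the 9 and 10.4% of all genes had an unadjusted p under 0.05. Those 4 were Foxo1, Cebpb, Ppargc1a and Irs2, each with a higher fitted change in sgBap1 than in NTC livers. The 2 CCl4 comparisons use different mice, whereas the interaction shares mice with every other comparison.

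These falls are relative to a median set near 0 by TMM. Scaled by library size alone, the median of all genes moved to 0.50 in NTC and 0.52 in sgBap1 livers after CCl4. On that scale Foxo1 changed by -0.25 in NTC (adjusted p = 0.0788) and rose by 0.70 in sgBap1 livers (adjusted p = 0.000416), and Cebpb changed by -0.34 (adjusted p = 0.149) and rose by 0.74 (adjusted p = 0.00854). Irs1, at -0.38, also lost its call in NTC livers, while Pck1, G6pc, Ppargc1a, Tat, Irs2 and Insr still fell. In sgBap1 livers Pck1 (-0.42, adjusted p = 0.0737) and Irs1 (-0.64, adjusted p = 0.0844) lost their calls, and G6pc, Tat and Insr still fell. Foxo1 and Cebpb lay below the median of all genes in NTC livers and above it in sgBap1 livers, where neither change passed the test with TMM. A change of scaling moves all genes nearly alike, so it cannot alter this order. In NTC livers the median of the hepatocyte markers was -1.57, close to the fall of Pck1, while G6pc and Tat fell further and the other 6 less far. The 14 markers themselves ranged widely there, from -0.25 (Apob) to -5.71 (Cyp2e1). In sgBap1 livers their median was -1.31, and Pck1 fell less far, by 0.88. The part of the loss of hepatocyte RNA in these falls was not tested.

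**Figure D3:**
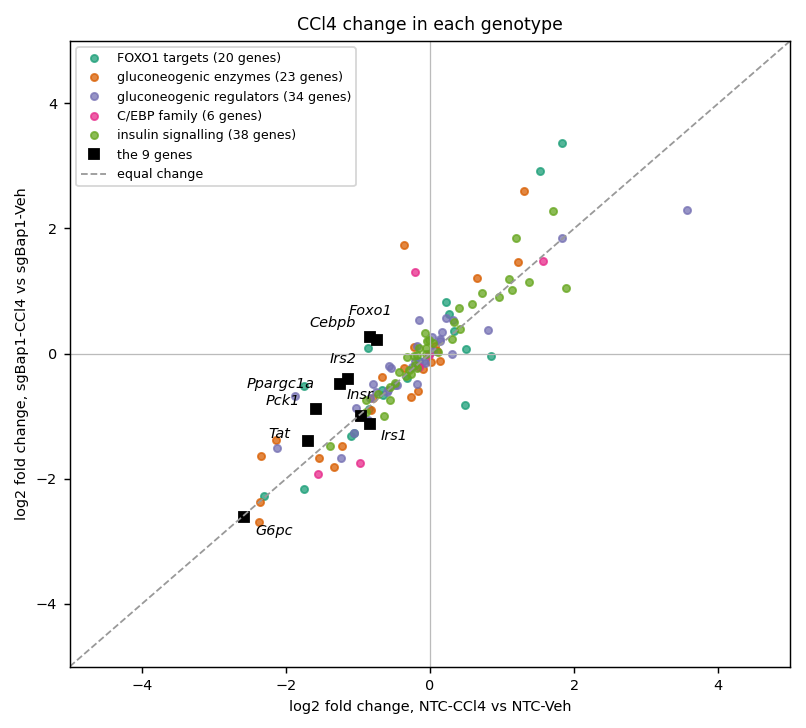
Log2 fold change after CCl4 in NTC livers (horizontal axis) against that in sgBap1 livers (vertical axis) for the 9 genes (black squares) and for the genes of 5 pathway lists (coloured points). On the dashed line the change is equal. G6pc and Insr lie on the line, and Foxo1 and Cebpb lie above it, at -0.73 against 0.22 and at -0.83 against 0.26.

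Per kilobase of annotated exon, the 9 genes spanned a wide range in NTC-Veh livers. Pck1 stood at 1303 ± 186 CPM per kb (SD, n = 2), Tat at 552 ± 141, G6pc at 244 ± 37.9 and Cebpb at 44.9 ± 12.6. The signalling genes were far lower, with Insr at 14.6 ± 0.794, Irs2 at 8.40 ± 1.79, Foxo1 at 5.56 ± 0.997, Irs1 at 4.28 ± 1.64 and Ppargc1a at 2.75 ± 0.257. In this order Foxo1 and Irs1 did not differ beyond their SD, nor did Irs1 and Ppargc1a. In NTC-CCl4 livers Tat (171 ± 17.7, n = 3) was above G6pc (40.8 ± 6.04) and both stayed below Pck1 (436 ± 12.2). The order of the enzymes was the same in sgBap1-CCl4 livers, where Foxo1 (6.08 ± 0.214) was above Irs2 (3.91 ± 0.444), the reverse of NTC-Veh livers.

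**Figure D4:**
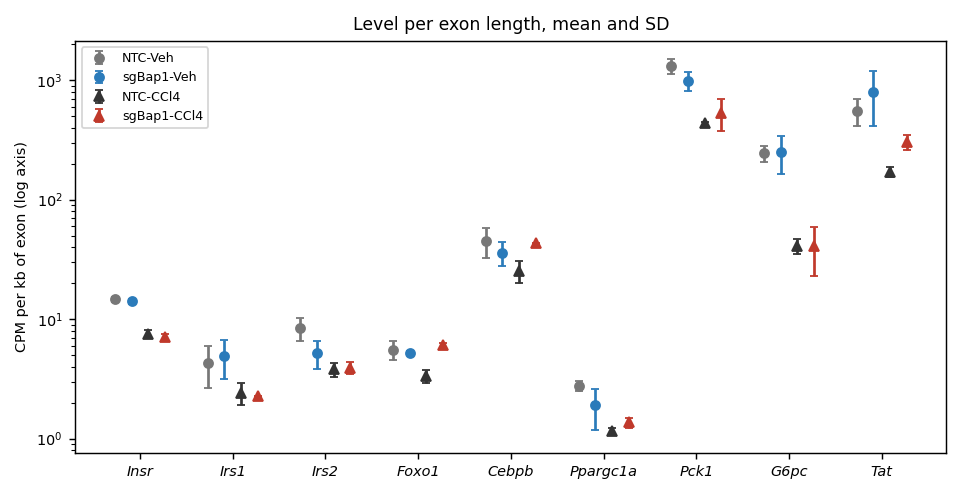
Mean level per kilobase of exon (CPM per kb, log axis) of the 9 genes in each group, with the SD over 2 or 3 mice as error bars. Pck1, Tat and G6pc sit above the other genes in vehicle livers, and in sgBap1-CCl4 livers G6pc (41.1) is at the level of Cebpb (43.0).

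Profiles close to those of the 9 were looked for over the 10 livers, by the root mean square difference of log2 CPM centred on each gene's mean. The closest genes to Foxo1 were Cep85l (0.13) and Tbc1d8 (0.15), and those to Cebpb were Guca1b (0.18) and Lurap1l (0.20). Insr had the closest match, Mrps35 and Serpind1 at 0.06 each. Pck1 was nearest to Lrrc56 (0.16) and Tcp11l2 (0.18), G6pc to Gm37729 and Acaa1b (0.24 each), and Tat to Gm14421 (0.22) and Gm14387 (0.26). Ppargc1a was nearest to Ino80b (0.13) and Nrbp2 (0.14), Irs1 to Mafg (0.16) and Atp1b1 (0.18), and Irs2 to Zfp113 (0.10) and Gm6969 (0.17). Within the 9, the closest pairs were Ppargc1a with Irs2 (0.22) and Foxo1 with Cebpb (0.23). All profiles share the same 10 libraries.

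Other insulin signalling genes were called about as often as all genes after CCl4. Of 38 tested, 11 rose and 13 fell in NTC livers (63.2% called, beside 53.9% of all genes, median -0.06). In sgBap1 livers 13 rose and 10 fell (60.5%, beside 57%, median 0.06). Without the liver with fat cell RNA 9 rose and 10 fell, beside 8855 of 16825 genes called. Socs3, an inhibitor of cytokine and insulin receptor signalling, rose by 1.71 (SE 0.27) and by 2.29 (SE 0.28), from 10.0 ± 3.00 to 32.9 ± 9.03 CPM in NTC livers. Grb10, an adaptor that inhibits the insulin receptor, rose by 1.19 in NTC livers (SE 0.33, adjusted p = 0.0129). In sgBap1 livers Grb10 rose by 1.85 (SE 0.34, adjusted p = 0.00138), and by 1.49 without the liver with fat cell RNA. Foxo3, a relative of Foxo1, fell by 1.38 in NTC (SE 0.14, adjusted p = 2.09e-05), and by 1.48 in sgBap1 livers (SE 0.14). Between genotypes 0 of the 38 passed with either treatment (4 and 5 at an unadjusted p under 0.05).

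Of the 23 gluconeogenic enzymes tested other than Pck1 and G6pc, 3 rose and 10 fell in NTC livers (56.5% called, beside 53.9% of all genes). In sgBap1 livers 3 rose and 11 fell (60.9%, beside 57%), and the medians were -0.36 and -0.37. Slc37a4, the transporter that brings glucose 6-phosphate to G6pc, fell by 2.37 in NTC (SE 0.13, adjusted p = 9.88e-07) and by 2.69 in sgBap1 livers (SE 0.13, adjusted p = 4.22e-07). Gpt, which turns alanine into pyruvate, had log2 fold changes of -2.36 and -2.37 (SE 0.11 each). With CCl4, Got1, the cytosolic aspartate aminotransferase, was higher in sgBap1 livers (173 ± 8.53 against 111 ± 7.29 CPM, log2 0.65, SE 0.10, adjusted p = 0.0353), and this call was lost without any 1 of the 6 CCl4 mice (0.60 to 0.69, adjusted p = 0.0635 to 0.216) or either sgBap1-Veh mouse (0.0568 and 0.0571).

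Among 34 regulators of gluconeogenesis, 3 rose and 16 fell in NTC livers (55.9% called, beside 53.9% of all genes). In sgBap1 livers 6 rose and 14 fell (58.8%, beside 57%). Klf15, a glucocorticoid-induced factor of amino acid breakdown, fell by 2.13 in NTC (SE 0.13, adjusted p = 1.75e-06) and by 1.50 in sgBap1 livers (SE 0.13, adjusted p = 7.10e-06). It was the 1 regulator that differed between genotypes with CCl4, at 73.8 ± 7.26 CPM in sgBap1 and 41.9 ± 3.63 CPM in NTC livers (log2 0.81, SE 0.12, adjusted p = 0.0256). That call was kept without the liver with fat cell RNA (0.0344). It was lost without either NTC-Veh mouse, any 1 of the 3 NTC-CCl4 mice or sgBap1-CCl4 replicate 1 (adjusted p = 0.0513 to 0.147). Onecut1, a hepatocyte factor, fell by 1.87 in NTC livers (SE 0.54, adjusted p = 0.0203) from a mean of 68.5 CPM with an SD of 59.0. Its change in sgBap1 livers was -0.68 (SE 0.55, adjusted p = 0.327). Gcgr, the glucagon receptor, fell by 1.23 in NTC (SE 0.18, adjusted p = 0.000240) and by 1.67 in sgBap1 livers (SE 0.18, adjusted p = 3.13e-05). Nr4a1, an immediate early nuclear receptor, rose by 1.82 in NTC (SE 0.43, adjusted p = 0.00631) and by 1.85 in sgBap1 livers (SE 0.42, adjusted p = 0.00509).

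Of 20 genes known as FOXO1 targets, 3 rose and 9 fell in NTC livers after CCl4 (60% called, beside 53.9% of all genes), and 5 rose and 10 fell in sgBap1 livers (75%, beside 57%). The medians were -0.49 and -0.46. Without the liver with fat cell RNA, 4 rose and 11 fell in NTC livers, beside 9374 of 16825 genes called. In sgBap1 livers 4 rose and 10 fell, beside 8855 of 16825. The higher share called was then in NTC livers, the reverse of the fit with every mouse. Pdk4, the kinase that closes pyruvate dehydrogenase, rose by 1.83 in NTC (SE 0.53, adjusted p = 0.0194) and by 3.37 in sgBap1 livers (SE 0.57, adjusted p = 0.00145), or by 2.77 without the liver with fat cell RNA. Igfbp1, a secreted binding protein that insulin represses, rose by 1.52 in NTC livers (SE 0.30, adjusted p = 0.00194). In sgBap1 livers Igfbp1 rose by 2.91 (SE 0.32, adjusted p = 5.46e-05), to 518 ± 178 CPM. Bnip3, a mitophagy receptor, fell by 2.30 in NTC (SE 0.20, adjusted p = 1.17e-05) and by 2.28 in sgBap1 livers (SE 0.20, adjusted p = 1.15e-05). Bcl6, a transcriptional repressor, was higher in sgBap1 livers with vehicle (21.9 ± 4.77 against 5.99 ± 1.16 CPM, log2 1.87, SE 0.22, adjusted p = 0.0191) and with CCl4 (23.2 ± 2.77 against 8.48 ± 1.50 CPM, log2 1.45, SE 0.17, adjusted p = 0.0188). The vehicle call was lost without either NTC-Veh mouse or sgBap1-Veh replicate 1 (adjusted p = 0.0577 to 0.104), and the CCl4 call without NTC-CCl4 replicate 1 or 3 or sgBap1-CCl4 replicate 1 (0.0694 to 0.0920). Lepr, the leptin receptor, had a log2 difference of -1.73 in sgBap1-Veh livers (SE 0.22, adjusted p = 0.0208), a call lost without NTC-Veh replicate 2 or either sgBap1-Veh mouse (0.0765 to 0.138). No other target of the 20 differed between genotypes.

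Of the 6 C/EBP relatives of Cebpb, 1 rose and 1 fell in NTC livers (33.3% called, beside 53.9% of all genes). In sgBap1 livers 2 rose and 3 fell (83.3%, beside 57%). Cebpa, the main C/EBP of resting hepatocytes, fell by 1.56 in NTC (SE 0.18, adjusted p = 6.42e-05) and by 1.92 in sgBap1 livers (SE 0.19, adjusted p = 1.68e-05). Ddit3, the stress factor CHOP, rose by 1.57 in NTC (SE 0.21, adjusted p = 0.000149) and by 1.48 in sgBap1 livers (SE 0.21, adjusted p = 0.000175). Cebpd, an acute-phase factor, was higher in sgBap1-CCl4 than in NTC-CCl4 livers (10.2 ± 2.15 against 4.55 ± 1.04 CPM, log2 1.16, SE 0.19, adjusted p = 0.0392), a call lost without the liver with fat cell RNA (0.97, adjusted p = 0.0804) and in 7 further fits that each left out 1 mouse (0.0615 to 0.216). It was kept without NTC-CCl4 replicate 2 or sgBap1-CCl4 replicate 3. Cebpe fell by 1.75 in sgBap1 livers (SE 0.38, adjusted p = 0.00296), from a low level of 6.06 ± 0.836 CPM. Its change in NTC livers was -0.97 (SE 0.38, adjusted p = 0.0544).

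Amino acid breakdown genes fell in both genotypes. Of 14 genes besides Tat in tyrosine and amino acid catabolism, 0 rose and 13 fell in NTC livers (92.9% called, beside 53.9% of all genes). In sgBap1 livers 1 rose and 13 fell (100%, beside 57%), and the medians were -2.08 and -2.31. Hpd, the step after Tat, had log2 fold changes of -3.82 and -3.88 (SE 0.21 each), and Prodh, which starts proline breakdown, of -3.87 and -4.55 (SE 0.23 and 0.24). Between genotypes 0 of the 14 passed with either treatment (2 and 3 at an unadjusted p under 0.05).

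The feeding state and the clock also move gluconeogenic genes, and both lists changed. Of 15 genes of the feeding state, 0 rose and 11 fell in NTC livers after CCl4 (73.3% called, beside 53.9% of all genes). In sgBap1 livers 0 rose and 13 fell (86.7%, beside 57%), and the medians were -1.07 and -2.20. Srebf1, a factor of fat synthesis that insulin induces, was higher in sgBap1-Veh livers (646 ± 27.0 against 345 ± 6.94 CPM, log2 0.90, SE 0.16, adjusted p = 0.0487), a call lost without any 1 of the 4 vehicle mice (0.117 to 0.246), NTC-CCl4 replicate 2 or 3 or sgBap1-CCl4 replicate 1 or 3 (at most 0.0803). Of the 15, 1 was higher in sgBap1-Veh livers, beside 69 of all 17015 genes called. Without the liver with fat cell RNA 4 were, beside 150 of 16825 genes called. Of 13 clock genes, 2 rose and 9 fell in NTC and 3 rose and 8 fell in sgBap1 livers (84.6% called in each, beside 53.9% and 57% of all genes). Per2, a clock repressor, was higher in sgBap1-Veh livers by 0.98 (SE 0.12, adjusted p = 0.0208), a call lost without any 1 of the 4 vehicle mice (0.0688 to 0.104). Its paralog Per1, which glucocorticoids induce, was higher in sgBap1-CCl4 livers by 1.17 (71.2 ± 6.39 against 31.7 ± 2.64 CPM, SE 0.09, adjusted p = 0.00287), a call kept without any 1 mouse (up to 0.0404). The part of feeding or time of day in the levels of the 9 genes was not tested.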

How the data were processed

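Bulk polyA RNA-seq of 10 mouse livers was analysed in the 4 groups that the labels give. The authors aligned stranded mRNA reads to GRCm38 with STAR 2.7.6a and counted them with Salmon 1.4.0, per the labels, on GENCODE vM25. The deposited table holds estimated counts (expected counts) per gene symbol without normalization. Whether counting used strand is not given in the sources used here, so reads from genes that overlap on opposite strands may be shared.

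Counts were rounded (9.22% of values were not whole) and tested with edgeR 4.0.16 under R 4.3.3. The steps were filterByExpr by group, TMM, a joint glmQLFit (robust) across the 4 groups, and two-sided quasi-likelihood tests with Benjamini-Hochberg adjustment over 17015 genes and a threshold of 0.05. DESeq2 1.42.0 and limma-voom (limma 3.58.1) were alternatives, beside other scalings, filters, a replicate block, edgeR's legacy method, fits of 2 groups alone and fits that dropped each mouse in turn. An added alternative, chosen after seeing the data, repeated the list counts and named list genes without sgBap1-CCl4 replicate 2, and Lepr, Srebf1 and Per2 were added to the refits. Only the edgeR test with its main settings was also run on simulated counts, with changes added to the sgBap1-CCl4 group. Of each list, up to 2 called genes with the largest change and a mean of at least 100 counts were eligible per pairwise comparison, and not all of them are named. The 9 genes and the lists were chosen with earlier results of these data known. Each library is a separate mouse and no batch is named in the labels. Gene models came from GENCODE vM21 and promoters from RefSeq. Depth was 33047900 to 52199900 counts per liver, and 3 counts are at most 0.112 CPM.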

Additional observations from a re-analysis of the deposited data

Results flagged for a closer look

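After CCl4, Foxo1 lay below both vehicle livers of its genotype in every NTC liver and above both in every sgBap1 liver. Its change of 0.22 in sgBap1 livers did not pass edgeR's test (adjusted p = 0.156). How many of all genes show such an opposite order was not counted. The log2 difference of the CCl4 effects, sgBap1 minus NTC, was 0.96, with an adjusted p of 0.0800 by edgeR's quasi-likelihood test and 0.000679 with DESeq2. Dropping single mice gave edgeR values between 0.0858 and 0.251.

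Cebpb lay in the same order, and its change of 0.26 in sgBap1 livers also did not pass edgeR's test (adjusted p = 0.311). The difference of the CCl4 effects was 1.09, with an adjusted p of 0.202 by edgeR's quasi-likelihood test and 0.0206 with DESeq2. Dropping single mice gave edgeR values between 0.123 and 0.417. Tmem189, which overlaps Cebpb on the other strand, was 13.5 to 15.0 CPM in NTC-Veh and 21.9 to 26.3 CPM in sgBap1-CCl4 livers, and its part in the reads counted for Cebpb was not tested.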

How the results depend on the processing

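The number of the 9 genes called changed with the tool or the mice in 4 of the 5 comparisons. DESeq2's Wald test called 3 between genotypes with CCl4 (Foxo1, Cebpb and Tat), in place of 1, and 2 for the interaction (Foxo1 and Cebpb), in place of 0. It also called far more of all genes, 480 of 27893 between genotypes with CCl4 and 406 for the interaction. By edgeR these were 56 and 0 of 17015. With each mouse left out in turn, 0 to 1 were called between genotypes with CCl4, 3 to 7 for CCl4 in sgBap1 livers and 8 to 9 for CCl4 in NTC livers. The count of 3 was without sgBap1-Veh replicate 1, where Pck1 and Irs1 lost their calls, and 7 was without sgBap1-Veh replicate 2, where Ppargc1a and Irs2 gained theirs. The same refits called 0 of the 9 with vehicle and 0 for the interaction. Where a vehicle group kept 1 mouse, that mouse was assumed to vary like the others. For the 45 values, 28 changes of sign occurred, 0 of them in a value past the threshold under either setting. Outside the refits without a mouse these were G6pc between genotypes with CCl4, at 0.01, which was -0.00167 by library size, -0.0243 with the replicate block and -0.0888 by limma-voom, and Irs2 after CCl4 in sgBap1 livers, which was 0.0675 by library size alone. Without a mouse, the ranges that crossed 0 were, with vehicle, -0.26 to 0.10 for Foxo1, -0.22 to 0.66 for Irs1, -0.36 to 0.36 for G6pc, -0.11 to 0.00129 for Insr and -0.0669 to 0.96 for Tat. With CCl4 they were -0.19 to 0.10 for Irs1, -0.0589 to 0.13 for Irs2 and -0.21 to 0.33 for G6pc. For the interaction they were -0.74 to 0.14 for Irs1, -0.0940 to 0.0227 for Insr, -0.35 to 0.37 for G6pc and -0.13 to 0.89 for Tat.

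The labels do not say whether replicate numbers pair the mice. Deviations from the group means correlated from -0.15 to 0.10 over the 13 pairs with the same number (2 over 0.1) and from -0.16 to 0.16 over the 24 others (3 over 0.1). In a group of 2 mice the deviations are mirror images, so these values cannot decide on pairing. With the number as a replicate block, 8 of the 9 genes were called for CCl4 in NTC livers (Irs1 was not, adjusted p = 0.0742), 5 in sgBap1 livers, 1 between genotypes with CCl4, and 0 with vehicle and for the interaction. Of all 17015 genes, the block called 8411, 8898, 24, 1 and 0 in the same order. Of the list genes called between genotypes, Got1, Klf15 and Cebpd with CCl4 (adjusted p = 0.0552 to 0.0906) and Bcl6, Lepr, Per2 and Srebf1 with vehicle (0.0744 to 0.0891) lost their calls under the block. Bap1 also lost its calls there, with vehicle (adjusted p = 0.0744) and with CCl4 (0.0552). Each vehicle group held 2 mice, so leaving out 1 left a single mouse.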

Other observations

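One more gene of insulin action was looked at after its values had been seen. Slc2a4 encodes GLUT4, the glucose transporter that insulin sends to the surface of fat and muscle cells. It was 0.735 and 1.16 CPM in NTC-Veh and 7.70 and 7.34 CPM in sgBap1-Veh livers, and at most 0.136 CPM in 5 of the 6 CCl4 livers. The sixth was the sgBap1-CCl4 liver with fat cell RNA, at 7.21 CPM. With vehicle the log2 difference between genotypes was 2.98 (SE 1.54, adjusted p = 0.503 by edgeR's quasi-likelihood test), and without that CCl4 liver it was 2.99 (SE 0.24, adjusted p = 0.00298). Over the alternatives with every mouse the adjusted p ran from 0.0249, with only the vehicle groups fitted, to 0.816. Adipoq and Plin1, which mark fat cells, were at 0 in both sgBap1-Veh livers.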
